A study of Mus musculus with 8 samples.

Results

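Osteoclast lineage cells are the bone-resorbing cells of the myeloid lineage and their precursors. In mouse parietal bone, 252 of 46420 cells (0.543%) that passed quality control were assigned to this lineage from the counts of a few genes. A cell was a member if it held at least 3 unique molecular identifiers (UMIs, the counted mRNA molecules) of Acp5, which encodes tartrate-resistant acid phosphatase, and at least 3 UMIs of Ctsk, which encodes the matrix protease cathepsin K. At least 1 of Atp6v0d2, Ocstamp, Dcstamp and Tnfrsf11a also had to be detected, together with at least 1 UMI of Tyrobp, and Col1a1 and Col2a1 each had to stay under 1.5% of the cell's UMIs. These genes chose the cells, so their levels in the members are a description and not a finding.

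The cells came from the parietal bone of pups at postnatal days 4 to 5, whose mRNA 3′ ends were sequenced cell by cell in droplets. There were 4 wild type (WT) libraries, S1, S2, S5 and S6, and 4 libraries, S3, S4, S7 and S8, from pups with 1 mutant allele of Col1a2 (heterozygous, Het), which replaces a glycine in the α2 chain of type I collagen. All pups belonged to strain B6.129(FVB)-Col1a2tm1Mcbr/J, a model of osteogenesis imperfecta, and a library pooled the cells of several pups of 1 genotype. Libraries S1 to S4 were made with kit version 3 and S5 to S8 with kit version 3.1, each kit with 2 libraries per genotype. Anything else that differed between these sets of libraries, such as the release of the processing software, cannot be told apart from the kit. The mutated gene is a product of osteoblasts, which deposit bone, so a difference in osteoclast lineage cells can follow the allele through other cells, and the design cannot tell these apart. The labels do not say whether libraries of 1 genotype came from separate litters, so p-values measure the spread between these libraries.

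Osteoclasts arise from monocyte and macrophage precursors under the cytokines M-CSF and RANKL. RANKL binds the receptor RANK, encoded by Tnfrsf11a, and together with receptors that signal through the adaptors DAP12 (Tyrobp) and FcRγ (Fcer1g) it induces the transcription factor NFATc1. The precursors leave the cell cycle, fuse and attach to bone through the αvβ3 integrin and a ring of actin-rich podosomes. Inside that ring a vacuolar proton pump and a chloride channel acidify the space over the bone, and cathepsin K and matrix metalloproteinases digest the collagen laid bare. The number of nuclei per barcode was not measured here. The study strained its cell suspensions and kept only the upper part after settling, so the shares below describe the cells that were kept.

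Values per library are given in the order S1, S2, S5, S6 for WT and S3, S4, S7, S8 for Het. The members numbered 27, 22, 59 and 55 in WT and 13, 21, 35 and 20 in Het. All 4 of Atp6v0d2, Ocstamp, Dcstamp and Tnfrsf11a were detected in 161 members (63.9%), 3 of them in 49, 2 in 29 and only 1 in 13. Mmp9, a gelatinase of osteoclasts that the selection did not use, was detected in 238 of 252 members (94.4%). The same gene was detected in 144 of 1259 macrophages (11.4%) of the same libraries and in 9.56% of 12952 cartilage cells, at median depths of 22352, 8484 and 9714 UMIs per cell. Calcr, the calcitonin receptor of mature osteoclasts, was detected in 21 members (8.33%) and in 0.0232% of cartilage cells. Oscar, an osteoclast receptor for collagen, was detected in 72 members (28.6%) and in 2 macrophages. Monocytes had Mmp9 in 20.2% of 1092 cells, at a median depth of 5749 UMIs. Mmp9 was thus found in most members and Calcr in few.

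Close to the limits of the selection, 9 members had exactly 3 UMIs of Acp5 or Ctsk, and Mmp9 was detected in 5 of them. A further 8 cells fell just outside with 2 UMIs of Acp5 or Ctsk, and Mmp9 was detected in 5 of these as well. The limit on collagen UMIs left out 16 cells, and 7 cells had none of the 4 osteoclast genes. The limit of 10% mitochondrial UMIs left out 115 of the 367 cells that met every other condition (31.3%), with a median mitochondrial share of 14.9% and Mmp9 in 114 of them. The 10 members with the highest mitochondrial share had a median of 9.79%, and all 10 had Mmp9. Mmp9 was thus detected in 99.1% of the cells that the mitochondrial limit alone kept out.

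Members were deeper than macrophages in every library, with a median UMI count per cell 1.59 to 3.16 times that of the macrophages. Their median mitochondrial share was 5.08% to 8.17% per library, against 3.69% to 5.13% in macrophages. The summed UMIs of the members ran from 153779 in Het S4 to 1839654 in WT S6. A doublet score marked 17 members (6.75%), and none were removed. They numbered 1, 0, 8 and 7 in WT and 0, 0, 1 and 0 in Het, so that most lay in WT S5 and S6. At least 3 UMIs of C1qa, C1qb and C1qc, genes of macrophage complement, were found in 24 members, whereas 203 members had none. The 24 were 3, 1, 1 and 2 members in WT and 0, 3, 9 and 5 in Het, so that most lay in Het. No barcode was that of a member in more than 1 library, although pairs of libraries shared 2 to 61 barcodes over all cells. Whether a member's barcode occurred among the other cells of another library was not examined.

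RNA of other cell types was present in the members and differed between libraries. The summed level of 6 erythroid genes ran from 14.0 CPM (the UMIs of a gene scaled to a common total of UMIs for each summed class and library) in Het S8 to 9071 in WT S2 and 24209 in Het S3. Osteoblast genes were highest in WT S5, at 4584 CPM for 9 genes, and neutrophil genes were highest in WT S1, at 1371 for 8 genes. Cd3e, Cd3d and Gzma of T and NK cells, Mcpt4, Tpsb2 and Cma1 of mast cells, Mpo of neutrophils and Igll1 of B cells had 0 UMIs in the members, which allows up to 0.487 CPM. These counts were kept in the comparisons. At least 3 genes of the neutrophil, B lineage or osteoblast list were detected in 125 members, which are called mixed-marker members here and numbered 16, 8, 40 and 37 in WT and 5, 3, 7 and 9 in Het. Most of these mixed-marker members thus lay in WT S5 and S6. The osteoblast list holds Col1a1 and Col1a2, which were detected in 89.3% and 90.5% of all members and in 91.7% and 88.4% of macrophages. For most members 1 further gene of that list was therefore enough to count as mixed. Macrophages were not filtered in this way.

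The first question was which genes set osteoclast lineage cells apart from the macrophages of the same bone. Macrophages were 1259 cells with Tyrobp, Csf1r and at least 3 C1q UMIs that were not members, and UMIs were summed per library and class, so that each of the 8 libraries gave a pair of sums. With edgeR's quasi-likelihood test, 4922 of 10610 genes (46.4%) passed an adjusted p of 0.05, 2275 higher (21.4%) and 2647 lower (24.9%) in osteoclast lineage cells. Since the members were chosen on osteoclast genes, genes expressed with those had to differ, and the test measures how regular a difference was over the libraries. The deeper sampling and higher mitochondrial share of members went along with the differences given here. With each cell thinned to 2000 UMIs, 1754 of 3946 genes tested were called, 1665 of them among the 4922. Among cells under 5% mitochondrial UMIs, which left 4 libraries, 2165 were called, 2119 of them among the 4922. Without the mixed-marker members, which left 7 libraries, 4598 were called, 4051 of them among the 4922. The macrophage rule likewise fixed Csf1r and the C1q genes, which were left out with the genes of the member rule. Genes expressed with the C1q genes also had to differ.

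Among the osteoclast genes outside the selection, 9 of 10 could be tested and all 9 were higher than in macrophages, with a median log2 difference of 3.98 against −0.07 over all genes. Mmp9 (chr2:164940780-164955850 in GRCm38) was at 5467, 3369, 2673 and 4405 CPM in members of WT and at 5057, 8662, 7313 and 5952 in Het. In macrophages it lay between 11.8 and 110. The classes did not overlap in any library, and Mmp9 differed by 7.26 ± 0.43 on the log2 scale (SE, edgeR adjusted p = 9.32e-09). Itgb3, the β3 chain of the podosome integrin, was at 85.7, 82.5, 10.5 and 25.5 CPM in WT and at 41.7, 84.5, 88.2 and 57.8 in Het. WT S5 and S6 had the lowest values, yet each library lay above the macrophage maximum of 2.63, and the difference was 4.91 ± 0.32 (edgeR adjusted p = 2.31e-08).

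Other markers rested on few macrophage counts. Oscar had 237 UMIs in members and 2 in macrophages, a 254-fold ratio of the summed levels with a 95% counting interval of 69.4 to 2107. Siglec15, a sialic acid receptor coupled to DAP12, had 161 and 2 UMIs, a 172-fold ratio with an interval of 46.9 to 1435. Calcr had 56 UMIs in members and 0 in macrophages, at least 40.0-fold higher when 3 UMIs over the macrophages are taken as the floor. These intervals cover counting error only.

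Beyond the markers, the genes with the largest rise at 50 or more CPM in members included Mt3, Slc9b2, Dgki, Akap6, Scin and Bdh2. Mt3, a metallothionein that binds zinc and copper, averaged 586 ± 274 CPM in members and 2.06 ± 2.41 in macrophages (SD, n = 8), a log2 difference of 8.21 ± 0.42 (edgeR adjusted p = 2.88e-09). It was far above the macrophage level in 8 of 8 libraries. Nyap2, a phosphoinositide 3-kinase adaptor first known from neurons, had 463 UMIs in members and 1 in macrophages, and Rufy4, a RUN and FYVE domain protein of the endolysosomal system, had 764 and 3. Scin, the actin-severing protein scinderin, was higher by 5.07 ± 0.39 and Bdh2, a cytosolic hydroxybutyrate dehydrogenase, by 4.91 ± 0.26 on the log2 scale. Dgki, diacylglycerol kinase iota, was higher by 6.41 ± 0.27 and Akap6, an anchor of protein kinase A, by 5.21 ± 0.26. Both showed lower levels in members with kit version 3 (Dgki 5.89 to 32.5 CPM, Akap6 50.9 to 143) than with kit version 3.1 (176 to 542 and 209 to 338).

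**Figure D1:**
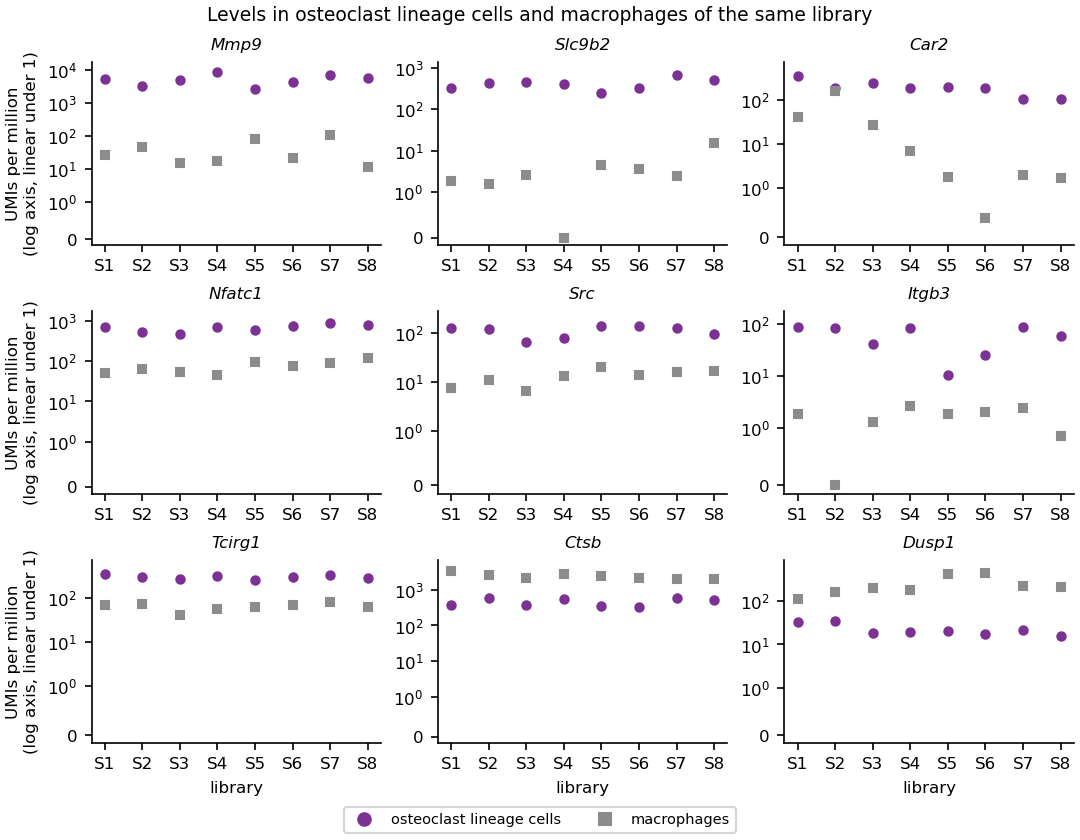
CPM of 9 genes (vertical axis, logarithmic above 1 and linear below) in osteoclast lineage cells (circles) and macrophages (squares) of each of the 8 libraries. Mmp9, Slc9b2, Car2, Nfatc1, Src, Itgb3 and Tcirg1 lay above the macrophages of the same library in 8 of 8 libraries, and Ctsb and Dusp1 lay below in all 8.

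Acid secretion needs the vacuolar proton pump, a membrane part (subunits V0) joined to a cytosolic part (subunits V1). Of 18 pump genes, 17 were tested, 12 were higher in members and 2 lower, with a median log2 difference of 1.45. Tcirg1, the a3 subunit by which osteoclasts place the pump in the ruffled border, was at 353, 295, 248 and 300 CPM in WT and at 269, 306, 330 and 277 in Het. The 8 values lay close together and all lay above the macrophage range of 41.5 to 79.0, with a difference of 2.31 ± 0.10 (edgeR adjusted p = 5.49e-10). The cytosolic subunits Atp6v1b2, Atp6v1d and Atp6v1c1 were higher by 2.73 ± 0.14, 2.47 ± 0.10 and 2.15 ± 0.14. Among the other isoform genes of the a and d subunits, Atp6v0a1 was lower by 3.90 on the log2 scale (SE 0.26) and Atp6v0d1 by 0.43 (SE 0.11), and Atp6v0a2 did not pass (0.27 ± 0.18). Atp6v0c, the ring-forming c subunit, held only 44 UMIs, a level that is uncertain because near-identical copies of the gene can take its reads.

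The genes of acid and vesicle transport followed the same direction. Of 10 such genes 8 were tested, and 7 were higher, with a median log2 difference of 2.06. Slc9b2, a sodium-proton antiporter (chr3:135307700-135345387), was at 330, 442, 257 and 338 CPM in WT and at 468, 403, 695 and 518 in Het. Macrophages had between 0 and 15.2, and no library overlapped (log2 difference 6.86 ± 0.30, edgeR adjusted p = 8.28e-10). Car2, the carbonic anhydrase that supplies the protons, was higher by 3.98 ± 0.59. Its macrophage level was 160 CPM in WT S2, close to the 194 of the members there, and between 0.393 and 42.3 in the other libraries. Snx10, a sorting nexin of the ruffled border, was higher by 3.0 ± 0.14, the anion exchanger gene Slc4a2 by 2.53 ± 0.14, the chloride-proton exchanger gene Clcn7 by 1.59 ± 0.21 and its partner Ostm1 by 1.19 ± 0.19. Rab7, a GTPase of late endosomes, did not pass (−0.02 ± 0.11).

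Many lysosomal genes carry an E-box read by the MITF and TFE family, so the 250 bases upstream of the gene start were searched for it in the 21 of 28 pump and transport genes with a promoter in RefSeq (GRCm38.p6). CACGTG, which reads the same on both strands, was found in 4 of the 21 (19.0%), and the longer CACGTGA, which contains it, in 3 (14.3%), on either strand. Among 27025 promoters the shares were 6.86% and 3.58%, and among the 8338 matched genes tested against macrophages they were 10.2% and 6.01%. Of the 14 matched genes that were higher in members, 3 held the shorter word, and the same 3 the longer. The shorter word stood in 10.3% of all genes higher in members and in 11.2% of all genes lower. The 3 promoters are shown because their genes were all higher in members, 5′ to 3′ on the strand of the gene, with CACGTGA in capitals, which reads TCACGTG where it lies on the other strand. Those of Clcn7 (chr17:25133141-25133390, plus strand), Atp6v1a (chr16:44139260-44139509, minus strand) and Atp6v0b (chr4:117887330-117887579, minus strand) held the shorter word from positions −15, −131 and −36 relative to the gene start, the last with 2 copies.
Clcn7: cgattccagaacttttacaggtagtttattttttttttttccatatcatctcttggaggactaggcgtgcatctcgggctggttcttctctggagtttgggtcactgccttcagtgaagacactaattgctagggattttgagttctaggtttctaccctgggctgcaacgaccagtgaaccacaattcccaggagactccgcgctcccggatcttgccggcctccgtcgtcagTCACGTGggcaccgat
Atp6v1a: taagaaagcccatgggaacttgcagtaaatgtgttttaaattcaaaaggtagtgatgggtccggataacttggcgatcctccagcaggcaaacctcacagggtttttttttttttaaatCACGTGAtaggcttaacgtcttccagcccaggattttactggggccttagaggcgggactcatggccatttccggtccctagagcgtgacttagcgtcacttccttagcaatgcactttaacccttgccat
Atp6v0b: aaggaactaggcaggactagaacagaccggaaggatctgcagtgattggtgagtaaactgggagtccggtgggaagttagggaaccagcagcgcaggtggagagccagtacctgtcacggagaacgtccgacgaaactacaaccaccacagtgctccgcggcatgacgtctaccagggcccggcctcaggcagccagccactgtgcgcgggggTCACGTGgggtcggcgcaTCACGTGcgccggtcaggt
A match of letters is a description of the sequence and does not show that a factor binds there.

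**Figure D2:**
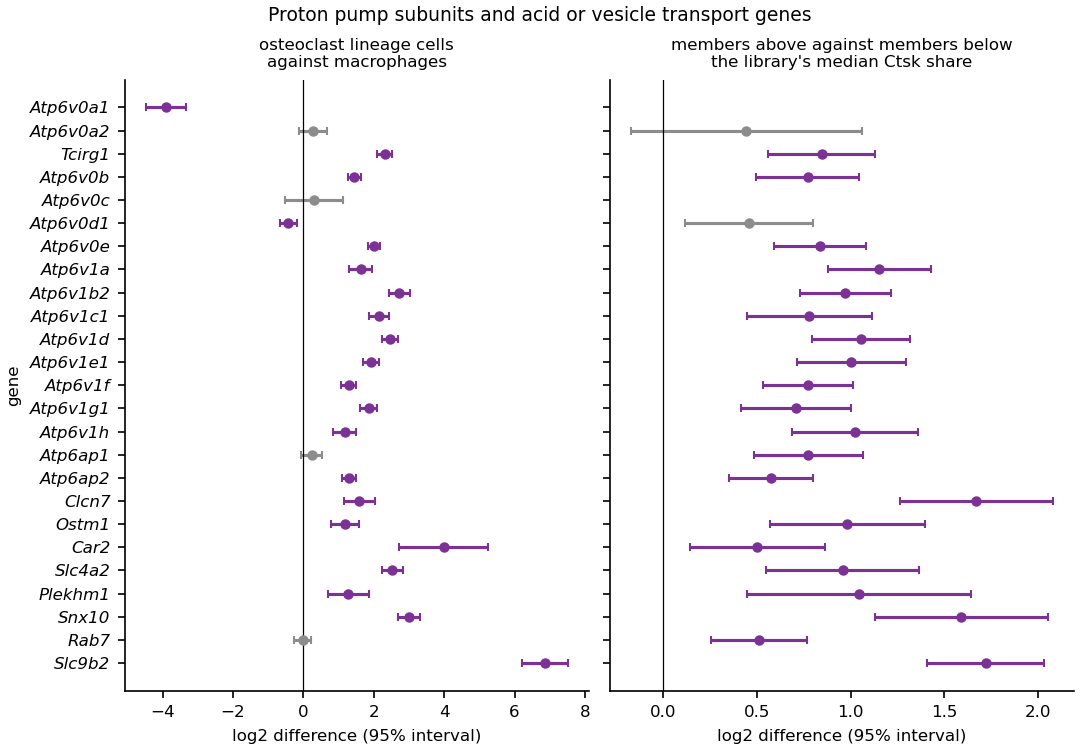
Log2 differences (horizontal axis) with 95% intervals from edgeR for 25 pump, acid and vesicle transport genes outside the selection, between osteoclast lineage cells and macrophages (left) and between members above and below the median Ctsk share of their library (right). Purple marks an adjusted p under 0.05 and grey the rest; Atp6v0a1, Atp6v0d1 and, at −0.02, Rab7 lie left of 0 on the left side, and no tested gene lies left of 0 on the right side.

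Of 14 genes for proteases and their inhibitors, 2 were higher in members, Mmp9 and Mmp14, and 7 were lower, while the metalloproteinase gene Mmp12 did not pass (−2.44 ± 1.07). Mmp14, a membrane-bound collagenase, was higher by 3.17 ± 0.15. Ctsb was at 368, 571, 344 and 326 CPM in members of WT and at 370, 540, 595 and 520 in Het, whereas macrophages had 1970 to 3340. The ranges were far apart, and Ctsb fell by 2.32 on the log2 scale (SE 0.15, edgeR adjusted p = 2.01e-08). The lysosomal proteases Ctsc, Ctss, Ctsl and Lgmn were lower by 4.08, 2.69, 2.33 and 3.15 in the same units, while Ctsz (0.05 ± 0.14) and the inhibitor Cst3 (−0.08 ± 0.10) did not pass.

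Of 13 transcription factors that promote the osteoclast fate, 9 were higher, 1 was lower and 3 did not pass, with a median log2 difference of 1.32. Nfatc1, the master regulator, was at 692, 521, 597 and 737 CPM in members of WT and at 477, 676, 849 and 786 in Het, against 44.7 to 122 in macrophages. It differed by 3.31 ± 0.13 (edgeR adjusted p = 4.63e-10), and no library overlapped. Prdm1, which represses Irf8, was higher by 3.67 ± 0.21, Jdp2 by 3.39 ± 0.23, Fosl2 by 2.70 ± 0.11 and Mitf by 1.21 ± 0.11. Fos itself was lower (−0.46 ± 0.12). Irf8 and Bcl6, which hold back the fate, were lower by 3.37 and 2.46 on the log2 scale.

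Receptor signalling genes did not move as a group. Of 19 genes of RANK, M-CSF receptor and ITAM signalling, 5 were higher and 7 lower, with a median of −0.14. Src, the kinase without which the ruffled border fails to form, was higher by 3.19 ± 0.16 and Traf6, the adaptor of RANK, by 1.20 ± 0.17. Fcer1g and Trem2 were lower (−1.06 ± 0.12 and −1.59 ± 0.24). Of 17 adhesion and podosome genes, 12 were higher and none was lower, with a median of 0.71: Myo10 differed by 2.96 ± 0.16, Dock5 by 2.91 ± 0.20, Cttn by 2.78 ± 0.25 and the αv chain Itgav by 2.46 ± 0.16. Of 6 fusion genes, Cd9 was higher (0.96 ± 0.16), and Cd47, Sirpa, Cd81 and Adam8 were lower.

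Genes of energy supply were higher almost throughout, at 11 of 12 with a median of 1.23. Ppargc1b, a coactivator of mitochondrial biogenesis, differed by 3.44 ± 0.13, the brain-type creatine kinase gene Ckb by 2.22 ± 0.13, cytochrome c (Cycs) by 1.88 ± 0.09 and the ATP synthase subunit Atp5b by 1.44 ± 0.08. Of 7 iron genes, the transferrin receptor gene Tfrc (2.63 ± 0.15) and the importer gene Slc11a2 (0.63 ± 0.18) were higher. The ferritin genes Fth1 and Ftl1, Hmox1 and the exporter gene Slc40a1 were lower, the last by 5.04 on the log2 scale (SE 0.31).

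Of 12 genes for signals from osteoclasts to osteoblasts, 7 could be tested, of which 3 were higher and 2 lower. Sema4d, a semaphorin that acts on osteoblasts, was at 242, 168, 188 and 225 CPM in WT and at 148, 228, 269 and 242 in Het. All lay above the macrophage range of 13 to 56.8, and the difference was 2.64 ± 0.19. Pdgfb, a growth factor for vessel and bone precursors, was higher by 1.51 ± 0.17 and the ephrin gene Efnb2 by 1.49 ± 0.34, while Cxcl16 and Hgf were lower. Sphk1, Bmp6, Lif, Tnfsf11 and Tnfrsf11b had 20, 8, 27, 2 and 5 UMIs over all members and were not tested.

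Macrophage genes were low in the members, as those expressed with the C1q genes of the macrophage rule had to be. Of 11 outside the selection, 10 were lower, with a median log2 difference of −4.93 (the fitted value, for genes with few UMIs in members too), and Cd68, a lysosomal glycoprotein of the whole lineage, did not pass (0.15 ± 0.11). F13a1, coagulation factor XIII, held 6 UMIs in the members, against a mean of 725 ± 499 CPM in macrophages (SD, n = 8). Retnla, Cd209f, Ccl24 and Ccl4 had 0 UMIs in the members and were at least 344, 189, 147 and 127-fold lower than in macrophages, with 3 UMIs over the members as the floor. Lyve1, Mgl2, Ccl12, Ccl7 and Slco2b1 had 1 to 3 UMIs. Immediate-early and heat shock genes that dissociation of tissue induces were also lower in members, at 10 of 12 with a median of −1.15, and Dusp1 fell by 3.44 on the log2 scale (SE 0.27).

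The second question was how the members differ among themselves. Ctsk ran from 0.0101% to 4.34% of a cell's UMIs, so members were divided at the median Ctsk share of their library, in the 7 libraries with at least 20 members. The 117 cells above it and the 122 below had median UMI counts of 24202 and 21087 and median mitochondrial shares of 6.68% and 5.27%. At an adjusted p of 0.05, 1270 of 6108 genes (20.8%) differed, 647 higher (10.6%) and 623 lower (10.2%) in the cells above the median. Ctsk and the other selection genes are not results here, and genes expressed with Ctsk had to differ. The division is a range of 1 measure and not a pair of cell types.

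Genes of the resorbing cell were higher in members with more Ctsk. All 9 tested markers outside the selection were higher, with a median log2 difference of 1.67 against −0.02 over all genes. Oscar had 201 UMIs above the median and 18 below, at 82.4 ± 38.3 and 7.07 ± 4.55 CPM (SD, n = 7 libraries), and was higher above it in 7 of 7 libraries (log2 difference 3.43 ± 0.34, edgeR adjusted p = 1.34e-05). Itgb3 differed by 2.93 ± 0.29, Mmp9 by 2.37 ± 0.28, Siglec15 by 1.97 ± 0.34 and Nfatc1 by only 0.55 ± 0.10. Oscar was detected in 54 of the 117 cells above and 12 of the 122 below, and Calcr in 16 and 4.

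Proton pump subunits moved together in this division. Of 15 tested subunits, 13 were higher above the median, with a median of 0.78 and a range among those 13 from 0.57 (Atp6ap2) to 1.15 (Atp6v1a). All 8 acid and vesicle transport genes were higher, led by Slc9b2 (1.72 ± 0.15), Clcn7 (1.67 ± 0.19) and Snx10 (1.59 ± 0.22). Adhesion and podosome genes were higher at 12 of 17 and fate-promoting transcription factors at 4 of 13, while Myc was lower (−1.11 ± 0.31). Jdp2 (0.05 ± 0.12), which exceeded the macrophage level widely, did not pass between members, and neither did Mitf (0.31 ± 0.15). Ckb was higher by 2.56 ± 0.27, whereas 8 of 12 energy genes did not pass. Lysosomal proteases divided as well: Ctsd (0.85 ± 0.14) and Ctsz (0.63 ± 0.14) were higher above the median, and Ctss (−1.64 ± 0.24) and Ctsc (−1.72 ± 0.31) lower.

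Other genes higher above the median were Mt3, Nyap2, St8sia6, Fam198b, Dgki and Itgb7. Mt3 averaged 1003 ± 487 CPM above and 113 ± 120 below (SD, n = 7), a log2 difference of 3.72 ± 0.33 (edgeR adjusted p = 5.82e-06). The antigen presentation genes H2-Aa and Cd74 were also higher, by 3.35 ± 0.78 and 3.06 ± 0.47. Cd74 was at 311 and 253 CPM in members of WT S1 and S2, at 20.3 and 20.1 in WT S5 and S6, and at 27.8, 111, 101 and 36.8 in Het. It was higher above the Ctsk median in 7 of 7 libraries, although both genes were lower in members than in macrophages (−2.61 ± 0.52 for Cd74).

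Below the median, 12 of 12 cell cycle genes were higher, with a median log2 difference of −2.60 for cells above against cells below. Mki67, a marker of cycling cells, differed by −3.10 ± 0.45, Top2a by −2.82 ± 0.46 and Tk1, the thymidine kinase of S phase, by −3.34 ± 0.42. At least 2 of the 12 genes were detected in 36 of 117 members above the median (30.8%) and in 68 of 122 below (55.7%). High counts were rarer: over all 8 libraries, 37 members held at least 20 UMIs of the 12 genes, 6 of the 123 above the median and 31 of the 129 below. Of 8 macrophage genes outside the selection, 4 were lower above the median and 2, Apoe and Cd68, higher (1.25 ± 0.28 and 0.95 ± 0.12). Those lower included Mrc1, the mannose receptor, lower by 3.89 on the log2 scale (SE 0.51), and Selenop, a selenium transport gene, was lower by 3.03 (SE 0.36). The cells below the median held 22 of the 24 members with at least 3 C1q UMIs and 13 of the 17 marked doublets. Without the marked doublets 1414 genes were called, 1139 of them among the 1270, and 12 of 12 cell cycle genes passed with a median of −2.97. The part of the members with C1q UMIs in this division was not tested.

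Further genes with a large difference were higher below the median. The basement membrane collagen genes Col4a1 and Col4a2 differed by −3.20 ± 0.30 and −3.10 ± 0.40, Mest by −3.53 ± 0.48, Fbxl7 by −3.09 ± 0.36 and Aspn, a matrix proteoglycan gene, by −3.08 ± 0.71. For Aspn, 780 UMIs lay below the median and 42 above, and WT S5, the library with the highest osteoblast gene level, was at 522 CPM against 102 or less in each other library.

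**Figure D3:**
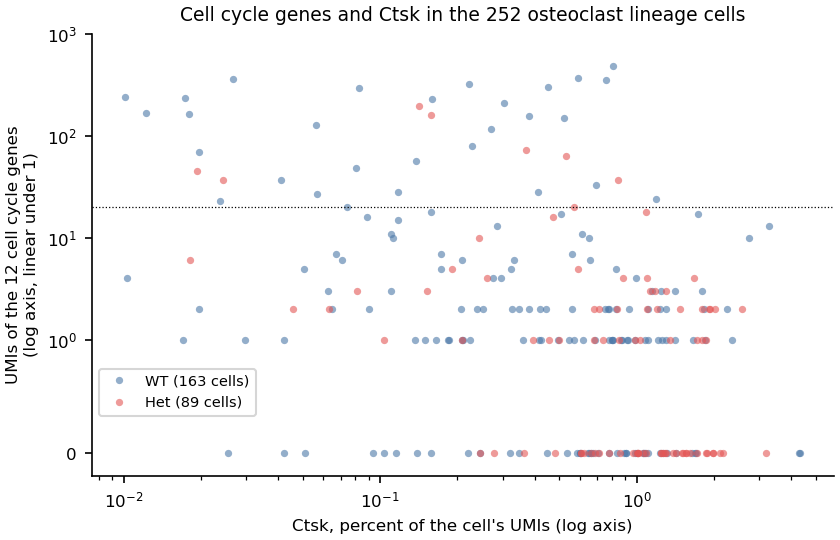
Each point is 1 of the 252 osteoclast lineage cells, with Ctsk in percent of its UMIs on a logarithmic horizontal axis and the UMIs of 12 cell cycle genes on the vertical axis, linear below 1. Blue marks WT and red Het, and the dotted line marks 20 UMIs, reached by 29 of 163 WT and 8 of 89 Het members.

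The third question was whether the Het allele goes along with fewer or more osteoclast lineage cells. Members made up 0.566%, 0.463%, 0.519% and 1.15% of the cells of WT. In Het they made up 0.382%, 0.280%, 0.660% and 0.443%. The groups overlapped, and WT S6 stood above the rest. The means were 0.673% ± 0.318 in WT and 0.441% ± 0.160 in Het (SD, n = 4 each), a difference of −0.232 points with p = 0.257 in a two-sided exact permutation test, for which 0.0286 is the smallest possible value. The difference was −0.183 points with kit version 3 and −0.281 points with kit version 3.1. It was −0.0746 points without WT S6 and −0.0307 points among cells under 5% mitochondrial UMIs. Without the 125 mixed-marker members, most of which lay in WT, the difference was 0.0449 points, with the opposite sign.

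Monocytes were taken as cells with Tyrobp, Csf1r and Ly6c2 or Ccr2 but under 3 C1q UMIs. Relative to the 2603 osteoclast lineage cells, macrophages and monocytes, members made up 3.48%, 5.03%, 19.4% and 21.5% in WT and 7.74%, 5.65%, 19.2% and 18.5% in Het. The kits separated these values and the genotypes did not. The means were 12.4% ± 9.41 in WT and 12.8% ± 7.09 in Het, a difference of 0.432 points (exact permutation p = 0.914), and it was 2.43 points in kit version 3 and −1.57 in kit version 3.1. Monocytes numbered 504 and 345 in WT S1 and S2 and 99 or fewer in every other library. With monocytes left out, the shares were 20.3% ± 6.95 in WT and 15.2% ± 7.55 in Het, a difference of −5.12 points (exact permutation p = 0.171).

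**Figure D4:**
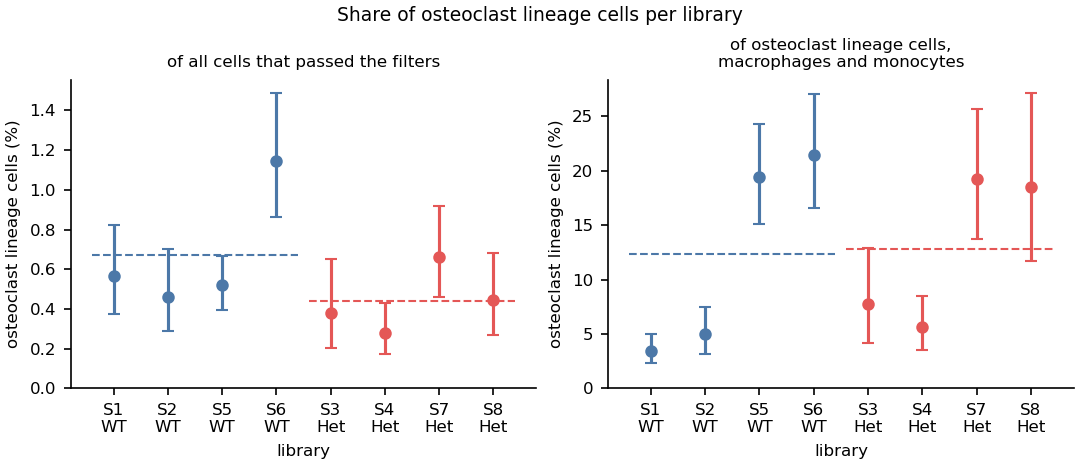
Osteoclast lineage cells in percent of all cells (left) and in percent of osteoclast lineage cells, macrophages and monocytes (right) for each library, with exact 95% binomial intervals that cover counting error only; dashed lines are group means. WT S6 is the highest on the left at 1.15%, and on the right the kit version 3.1 libraries S5 to S8 lie between 18.5% and 21.5%, above S1 to S4.

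The last question was whether gene expression within the osteoclast lineage differed between Het and WT. With kit version as a covariate, edgeR tested 6733 genes and 0 passed an adjusted p of 0.05 (0%). At an unadjusted p under 0.05 there were 624 genes (9.27%), 294 higher (4.37%) and 330 lower (4.90%) in Het, and the lowest adjusted p was 0.0793. DESeq2 called 32 genes in the same sums, and edgeR called 24 without the marked doublets, 3 without the mixed-marker members and 0 with the osteoblast, chondrocyte, erythroid, neutrophil and B lineage genes left out (632 of 6718 at an unadjusted p under 0.05). For 190 genes (2.82%) the 4 Het and the 4 WT libraries did not overlap, 98 higher (1.46%) and 92 lower (1.37%). None of the Het against WT values in the following paragraphs passed edgeR's test at an adjusted p of 0.05.

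No gene of the osteoclast machinery passed between the genotypes, and for several the interval was narrow. Tcirg1 differed by −0.01 (95% interval −0.31 to 0.29) and Nfatc1 by 0.10 (−0.23 to 0.42) on the log2 scale. The 15 tested pump subunits had a median of 0.17, with 14 above 0, and 1 of them at an unadjusted p under 0.05. The markers outside the selection had a median of 0.60 against −0.01 over all genes, with 7 of 9 above 0. At an unadjusted p under 0.05, 4 of these 9 were higher and 1 was lower. The 12 tested genes for proteases and inhibitors had a median of 0.35, with 6 higher and 0 lower at that threshold. Over all genes 9.27% reached it in either direction. Mmp9 had a value of 0.75 (0.32 to 1.17, edgeR adjusted p = 0.191) and Slc9b2 of 0.63 (0.20 to 1.06, edgeR adjusted p = 0.296). The per-library values given above for Mmp9, Itgb3 and Slc9b2 overlap between WT and Het, and Car2 went the other way at −0.65 ± 0.20. The median Ctsk share of a member, a selection gene and so only a description, was 0.333% to 0.662% in the WT libraries and 0.691% to 1.09% in the Het libraries.

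Cell cycle genes lay below 0 throughout. Cdk1, the kinase that drives mitosis (chr10:69335146-69352938), was at 100, 97.2, 78.8 and 88.1 CPM in members of WT and at 13.9, 6.50, 13.9 and 40.3 in Het. The groups did not overlap, and the log2 difference was −2.11 ± 0.32 (edgeR adjusted p = 0.0793). Prc1, which bundles the spindle midzone, was at 77.3, 94.2, 69.0 and 83.7 in WT and at 23.2, 0, 8.17 and 31.5 in Het, again without overlap (−2.32 ± 0.39). All 12 cell cycle genes were below 0, with a median of −2.05, 11 of them at an unadjusted p under 0.05, and 7 of 12 had groups that did not overlap. The summed level of the 12 genes was 1365, 1072, 1141 and 1387 CPM in WT and 292, 32.5, 169 and 856 in Het. Het S8 was the nearest to WT, and without that library 10 of the 12 genes passed, against 4 without Het S3 and 0 without each of the other 6. With all libraries, 11 passed without filterByExpr, 5 without marked doublets, 4 with DESeq2, and 3 at a limit of 2 UMIs of Acp5 and Ctsk. Without mixed-marker members, which left 7 libraries, 0 of 11 tested passed. The count was also 0 at a limit of 5 UMIs of Acp5 and Ctsk, at under 5% mitochondrial UMIs, without the kit term, with those genes of other cell types left out and within either kit alone.

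**Figure D5:**
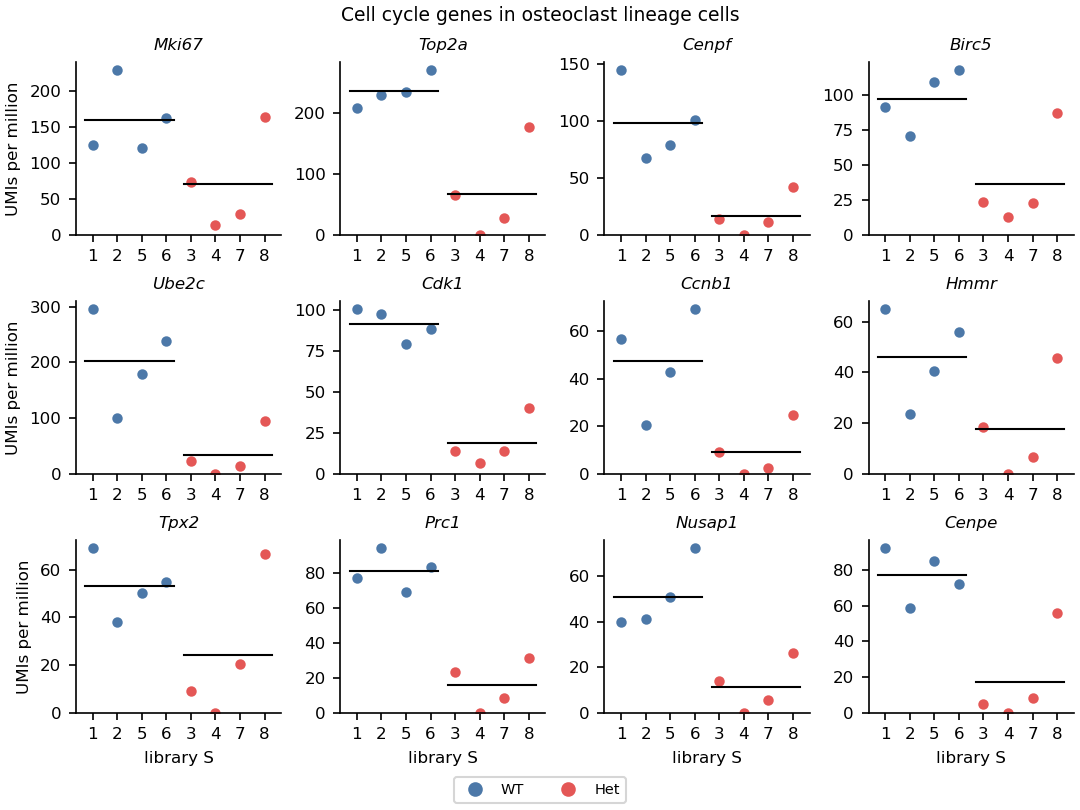
CPM of the 12 cell cycle genes in osteoclast lineage cells, by library (horizontal axis, the number after S), with WT in blue, Het in red and black lines at the group means. Cdk1, Prc1, Nusap1, Top2a, Cenpf, Ube2c and Cenpe have no overlap between groups, and Het S8 is the highest Het library for each of the 12 genes.

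A few cells carried most of these counts. The 3 members with the most cell cycle UMIs held 90.2% and 89.6% of them in WT S1 and S2, 44.2% and 47.4% in WT S5 and S6, and 93.7%, 80.0%, 72.9% and 82.6% in Het. Members with at least 20 UMIs numbered 3, 3, 12 and 11 in WT and 1, 0, 2 and 5 in Het. The highest single cell held 478 UMIs, in WT S6, while Het S4 had 5 UMIs in all. The summed levels of the 12 genes thus came largely from few cells, and fewer cycling cells and less of these mRNAs per cell cannot be told apart in the sums.

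Counted per cell, the difference was within the spread. At least 2 of the 12 genes were detected in 108 members (42.9%): in 40.7%, 27.3%, 50.8% and 50.9% of those in WT and in 30.8%, 4.76%, 51.4% and 50% of those in Het. Het S4, the library of the shallowest cells, was far below the others, and the groups overlapped. The means were 42.4% ± 11.2 and 34.2% ± 21.8, a difference of −8.20 points (exact permutation p = 0.629), which was 1.62 points without Het S4. It was −16.2 points in kit version 3, which holds Het S4, and −0.164 in kit version 3.1. Without members of 3 or more C1q UMIs it was −9.94 points (exact permutation p = 0.429), and for at least 3 of the 12 genes −11.6 points (exact permutation p = 0.286). Among cells under 5% mitochondrial UMIs, which left 4 libraries, it was 5.09 points, with the opposite sign. After each cell was thinned to 2000 UMIs, which left out 6 members, the shares were 21.7% ± 3.98 and 11% ± 8.70, a difference of −10.7 points (exact permutation p = 0.114), at −11.8 and −9.51 within the kits. Het S4 then had 0 of 19 members with at least 2 of the 12 genes, against 8.57% to 27.6% in the other libraries. Detection of these genes in single UMIs is not by itself evidence of cycling, and Mki67 was detected in 9.04% of cartilage cells and 24.2% of members.

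Hmgb2, Tubb4b and Incenp were named with Cdk1 and Prc1 for the lowest p among genes lower in Het. Hmgb2, a chromatin protein of dividing cells, was at 479, 424, 507 and 495 CPM in WT and at 148, 84.5, 85.8 and 280 in Het, a difference of −1.68 ± 0.30 with no overlap. Tubb4b, a β-tubulin, differed by −0.92 ± 0.15 and Incenp, of the chromosomal passenger complex, by −1.51 ± 0.27. Among the genes higher in Het, Ppt1, a lysosomal thioesterase, was at 64.8, 50.1, 39.8 and 46.2 in WT and at 97.2, 130, 86.6 and 82.3 in Het, a difference of 0.94 ± 0.17 with no overlap. Fam198b (1.26 ± 0.23), the secreted glutathione peroxidase gene Gpx3 (1.39 ± 0.26), the surface protein gene Cd109 (0.76 ± 0.15) and Cblb (0.82 ± 0.17), a ubiquitin ligase, had the next lowest p. The adjusted p of these genes was between 0.0793 and 0.106. Only genes with the same sign within both kits could be named here.

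The stress genes that the study followed in osteoblasts were tested here in osteoclast lineage cells. Of 23 genes 17 could be tested, 0 passed, and 8 lay above 0 and 9 below, between −0.51 and 0.90 on the log2 scale. The endoplasmic reticulum chaperone gene Hspa5 differed by 0.10 (95% interval −0.16 to 0.36) and the mitochondrial chaperone gene Hspa9 by −0.07 (−0.34 to 0.21). The 11 tested macrophage genes were all above 0, with a median of 1.01 and none past the test. Members with at least 3 C1q UMIs lay mostly in Het S7 and S8, and their part in these values was not tested. S100a8 and S100a9, abundant neutrophil mRNAs, had differences of −5.10 ± 1.01 and −7.31 ± 1.5. They were highest in 1 WT library, at 541 and 748 CPM in WT S1 against 165 or less in each other library.

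In macrophages of the same libraries, the 12 cell cycle genes had a median Het against WT difference of 0.02, and 7 were above 0. The genotype by class term of edgeR, which tests whether the Het against WT difference itself differs between the classes, was below 0 for all 12, with a median of −2.25 and 11 at an unadjusted p under 0.05, but 0 passed adjustment. Over all genes 1 of 10610 (0.00943%) passed, and 872 (8.22%) had an unadjusted p under 0.05, 346 above 0 (3.26%) and 526 below (4.96%), with 15 called by DESeq2. The gene was Trabd2b, a membrane protease that inactivates Wnt proteins, with a term of −4.14 ± 0.57 (edgeR adjusted p = 0.0373). It was at 0, 2.95, 46.5 and 28.3 CPM in members of WT and at 0, 0, 3.27 and 3.5 in Het, against 1.35, 0, 27.1 and 20.8 and 10.4, 3.5, 35.1 and 49.0 in macrophages. Only the kit version 3.1 libraries held more than single counts in the members, 121 UMIs in all, of which 114 lay in cells below the median Ctsk share. Leaving out any 1 of S3 to S8 ended the call (adjusted p from 0.0747 to 0.629), and without the marked doublets the term was −2.26 (edgeR adjusted p = 0.763).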

How the data were processed

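Single cells of parietal bone were profiled by 10x Genomics 3′ sequencing. The authors deposited raw UMI counts per gene and cell, made with Cell Ranger on mm10 per the labels and the submitters' processing notes; libraries of kit version 3.1 used a later Cell Ranger release. Cells with at least 500 genes and under 10% mitochondrial UMIs were kept, as in the study. The members and gene lists were chosen with earlier results of these data known. Doublets were scored by nearest neighbours among simulated doublets and marked, not removed. Members with at least 3 detected genes of the neutrophil, B lineage or osteoblast list were counted as mixed.

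Total UMIs per library ran from 30480239 to 85162035, and intervals (exact Clopper-Pearson, also for ratios of summed counts) cover counting error only. Counts were summed per library and class and tested with edgeR 4.0.16 (filterByExpr, TMM, glmQLFit, glmQLFTest) in R 4.3.3, with kit version or the library as covariate and Benjamini-Hochberg adjustment. Fold changes are log2 with SE, and levels are CPM of the summed counts. The scripts were tested on simulated data. Shares were compared over libraries with a two-sided exact permutation test over all assignments, without kit version as a covariate. The exact intervals of shares were made with scipy 1.17.1. Genes were named by list, and otherwise as the 10 with the largest rise and fall among called genes at 50 or more CPM, or for genotype the 5 of lowest p per direction at 20 or more with 1 direction in both kits, leaving out selection, haemoglobin, mitochondrial and sex-linked genes.

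Alternatives were DESeq2 1.42.0, no filterByExpr, no kit term, a replicate block, other selection limits, thinned cells, members without doublets or mixed markers, the genes of other cell types left out for Het against WT, and each library left out. Fits within 1 kit, the crossed pairing and the share with cell cycle genes without members of 3 or more C1q UMIs were chosen after seeing the data. Same-numbered libraries correlated at −0.0961 and −0.142 within the kits, so the numbers did not pair them. Coordinates are from GENCODE (GRCm38), in which 99.6% of gene IDs were found, and promoters from RefSeq.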

Additional observations from a re-analysis of the deposited data

Results flagged for a closer look

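In 4 of 64 sets of 4 libraries, 1 library lay apart from the other 3 by Dixon's criterion, which chance meets in about 1 of 20 sets. The share of osteoclast lineage cells among all cells was 1.15% in WT S6 and 0.463% to 0.566% in the other WT libraries. Car2 was at 368 CPM in members of WT S1 and at 188 to 201 in the other WT libraries. Het S8 was the highest Het library for Birc5, an inhibitor of apoptosis needed for cell division, with 87.5 CPM against 13 to 23.2 in the other Het libraries. The same library was the highest for Cenpe, a motor protein of the kinetochore, with 56.0 CPM against 0 to 8.17. In Het S8, 5 of 20 members held at least 20 UMIs of the 12 cell cycle genes.

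The Het against WT change of Trabd2b differed between osteoclast lineage cells and macrophages by −4.14 on the log2 scale (edgeR interaction term, adjusted p = 0.0373). With kit version 3.1 it was at 46.5 and 28.3 CPM in WT and 3.27 and 3.5 in Het members. With kit version 3 the members of WT S2 alone held any UMI of it.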

How the results depend on the processing

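The share of all cells kept its sign except without mixed-marker members (0.0449 points), was −0.0307 points at under 5% mitochondrial UMIs (exact permutation p = 0.771), and ran from −0.305 to −0.0746 when 1 library was left out. The share of the 3 myeloid classes was −5.12 points with monocytes left out, 4.19 without mixed-marker members and −2.53 to 3.48 without 1 library, with the sign turned without S1, S2, S7 or S8. The share with cell cycle genes was 5.09 points at under 5% mitochondrial UMIs, which left 4 libraries, and −13.9 to 1.62 without 1 library.

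The replicate block gave 13 genes changed between Het and WT, 3 of them cell cycle genes, against 0 without it, though the numbers did not pair the libraries. The crossed pairing gave 22. DESeq2 called 32, kit version 3.1 alone 24, members without marked doublets 24, no filterByExpr 235, members without mixed markers 3 (Hmgb2, Dab2 and Cd74, chosen for naming after their values were seen), a limit of 2 UMIs of Acp5 and Ctsk 15, and thinned cells 1 (Dab2, of 792 genes tested). Leaving out 1 library gave 0 to 95 genes, with 95 without Het S3, 35 without Het S8 and 2 without WT S5 or S6. A fit without the kit term called 0, with 249 at an unadjusted p under 0.05.

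Against macrophages, kit version 3 alone called 2529 genes, under 5% mitochondrial UMIs 2165 and thinned cells 1754 of 3946 tested, and leaving out 1 library 4240 to 4841. Between members above and below the median Ctsk share, kit version 3 alone called 245, kit version 3.1 alone 809 and thinned cells 223 of 728, and leaving out 1 library 919 to 1326. This comparison could not be fitted at under 5% mitochondrial UMIs or without mixed-marker members. The interaction called 15 genes with DESeq2, 0 in kit version 3, 30 in kit version 3.1, 0 without marked doublets, 313 without filterByExpr, 3 without mixed-marker members, 0 at 2 UMIs of Acp5 and Ctsk, 5 in thinned cells and 0 to 14 without 1 library, 14 being without WT S1. Fits within 1 kit or at under 5% mitochondrial UMIs held fewer libraries and thinned cells fewer genes, and otherwise the cause was not tested.

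For named genes, 102 of 451 values between Het and WT passed the threshold under some setting and 67 of 2155 against macrophages lost it. Of 1380 values between members above and below the median Ctsk share, 123 lost it and 1 reversed: Lyz2 was 0.017 where Acp5 and Ctsk had at least 5 UMIs (edgeR adjusted p = 0.996). The depth of Het S4, with 153779 summed UMIs, limits what its 21 members can show.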

Other observations

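Chaperone and stress genes, a list the study chose on cells of these samples, were mostly higher in osteoclast lineage cells than in macrophages of the same libraries. Of 22 tested, 14 were higher and 1 was lower, with a median log2 difference of 0.49 against −0.07 over all genes. The mitochondrial chaperone genes Hspd1, Trap1, Hspe1 and Hspa9 differed by 1.49 ± 0.14, 1.39 ± 0.14, 1.24 ± 0.09 and 1.16 ± 0.11. Asns, the asparagine synthetase of the amino acid response, was higher by 1.38 ± 0.20 and its regulator Atf4 by 0.49 ± 0.11, while Nupr1, a stress-induced cofactor, was lower (−1.23 ± 0.24). Between members above and below the median Ctsk share, 1 of 17 of these genes passed, in the lower direction.

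All 12 cell cycle genes lay below 0 in members against macrophages, with a median of −0.98. Of these, 4 were called lower, where 24.9% of all genes tested were called lower. The count was 12 without WT S1 and 3 or 4 without each other library, 12 without mixed-marker members, 11 with DESeq2, 10 in kit version 3.1, and 0 in kit version 3 (median −0.23) or at under 5% mitochondrial UMIs. At least 2 of the 12 genes were detected in 42.9% of members and 37.6% of macrophages, at median depths of 22352 and 8484 UMIs. Between Het and WT members, 9 of 9 tested genes that dissociation of tissue induces lay below 0 (median −0.43), 1 of them at an unadjusted p under 0.05 and 0 past edgeR's adjusted p. Of osteoblast genes outside the selection, Runx2 and Col1a2 were tested, at −1.57 ± 0.67 and −1.28 ± 1.16, and 0 passed. WT S5 had the highest summed osteoblast level, 4584 CPM against 163 to 1996 in the other libraries.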
